A study of Mus musculus with 4 samples.

Results

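The genes described here encode the proteins of the cytoplasmic ribosome in mouse B cells, and their RNA was compared with and without the transcription factor Ascl2. They were chosen by name alone, as the listed genes whose symbol is that of a large subunit protein (Rpl, including Rplp0, Rplp1 and Rplp2) or a small subunit protein (Rps, including Rpsa), leaving out S6 kinases and genes named as pseudogenes. The rule found 86 of 13792 listed genes, 50 of the large and 36 of the small subunit. Of these, 77 are the core genes, 46 large and 31 small, and 9 are named copies of a core gene (Rpl6l, Rpl7l1, Rpl22l1, Rpl39l, Rps3a2, Rps3a3, Rps4l, Rps12l1 and Rps27l). RefSeq annotates 5 of the copies (Rpl6l, Rps3a2, Rps3a3, Rps4l and Rps12l1) as pseudogenes although their names do not say so.

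For both RNA libraries, B cells labelled as naive were taken from C57BL/6 mice, infected with a retrovirus and kept in culture with antibodies to IgM and CD40, which activate B cells. The RVKM-Empty group received the empty virus. The RVKM-Ascl2 group received the virus carrying Ascl2, a basic helix-loop-helix transcription factor, so that Ascl2 was added from outside its own locus. The sources used here do not give the age or number of the mice, or whether infected cells were selected. There was 1 library per group, so no value has a replicate error, no test between the groups was possible, and every difference below is one between 2 libraries. The 2 other samples of the series, chromatin from germinal centre B cells, were not analysed here.

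A ribosome holds a single copy of nearly every ribosomal protein, so a cell needs these proteins in matched amounts. Their mRNAs are short, very abundant and start with a run of pyrimidines (C or T in the gene), the terminal oligopyrimidine or TOP motif, through which the kinase mTOR and the binding protein Larp1 set how strongly they are translated. B cells build up ribosomes after activation, before they divide and secrete antibody.

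The values are deposited abundances per gene. The name of their unit is not given in the sources used here, so levels of different genes are compared below on the assumption that they are also per gene length. All values summed to 750692 for the empty vector and 763932 for Ascl2, and absolute depth is unknown. Where 2 values of a gene are given, the first is that of the empty-vector library. Ascl2 itself was 0.0809 and 29.4, in the direction of the labels. The B cell markers Cd79a, Cd79b, Ms4a1, Pax5, Cd22, Cd37 and Ighm were present in both libraries, from 97.7 for Pax5 with Ascl2 upward. None of 7 T cell markers was among the listed genes. Of 8 myeloid markers 5 were listed, at a sum of 39.9 and 44.7, while Itgam, S100a8 and S100a9 were not among the listed genes. The 2 listed erythroid genes of 5 on that list summed to 2.03 and 1.75, and the 2 collagen genes listed of 4 stromal markers to less than 1.1 in either library. The part of other cells in the results below was not tested. In bulk RNA, fewer cells of a type and less RNA per cell cannot be told apart.

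Ribosomal protein genes were among the most abundant transcripts of these B cells and took a smaller share in the Ascl2 library. They held 22.8% of all summed abundance with the empty vector but 19.7% with Ascl2. The large subunit genes took 13.1% and 11.6%, the small subunit genes 9.69% and 8.12%. Of the 100 highest genes in the file, 57 encoded ribosomal proteins with the empty vector, and with Ascl2 it was 53. Between the same libraries immunoglobulin genes (238 listed) went from 5.51% to 9.56% and Pcdh15, a protocadherin gene that was 481 and 26003, from 0.0641% to 3.40%. The remaining 13467 genes went from 71.6% to 67.3%. With values on a relative scale, a smaller share of ribosomal protein RNA and a larger share of the rest cannot be told apart here.

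The core genes covered a wide range of levels within each library. With the empty vector 62 of 77 core genes lay between 500 and 5000, 7 above 5000 and 6 below 200. With Ascl2 61 lay between 500 and 5000, 5 above 5000 and 6 below 200. The highest core value was 148 times the lowest with the empty vector and 138 times with Ascl2. The 10 highest core genes held 34.3% of the core sum for the empty vector and 35.9% for Ascl2. The order of levels was similar in the 2 libraries, with a Spearman rho of 0.98 over the 85 members that reached a value of 1 in at least 1 library, given as a description because the genes share both libraries. Within that order, 20 of the 77 core genes moved by more than 5 places in the order.

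**Figure D1:**
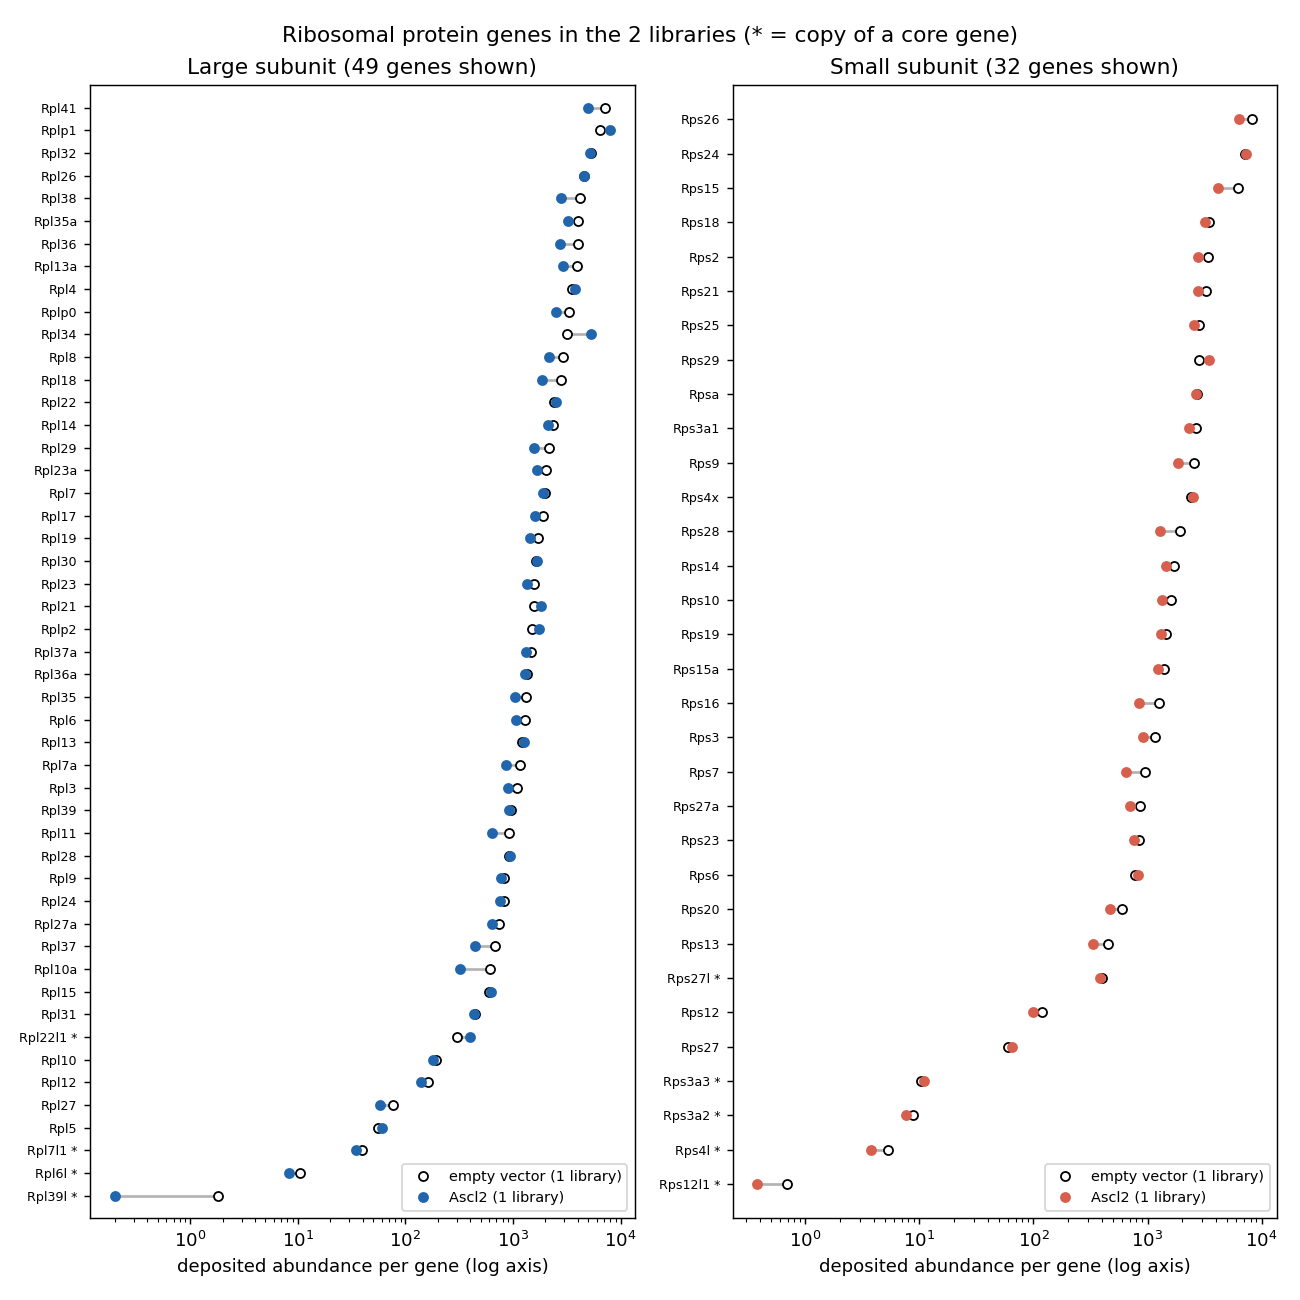
Deposited abundance (log axis) of 81 of the 86 ribosomal protein genes with the empty vector (open circles) and with Ascl2 (filled circles), 1 library each, large subunit on the left and small subunit on the right, ordered by the empty-vector value. Most filled circles lie slightly to the left of the open ones, Rpl34 lies clearly to the right, and the copies (asterisks) fill most of the bottom of both panels.

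The highest small subunit genes were Rps26, Rps24 and Rps15 in both libraries. Rps26, a protein of the mRNA exit channel, was 8270 and 6401, and went from the first to the third place among all members. Rps24 was 7098 and 7335. Rps15, which reaches toward the decoding site, was 6189 and 4185. Rps24 was thus at a similar level and in the same place in both libraries, while Rps26 and Rps15 were lower in the Ascl2 library.

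With the empty vector the highest large subunit genes were Rpl41, Rplp1 and Rpl32, and with Ascl2 they were Rplp1, Rpl34 and Rpl32. Rpl41, which encodes the shortest ribosomal protein, was 7088 and 4970. Rplp1, an acidic protein of the stalk that recruits elongation factors, was 6396 and 7931, which made it the highest member with Ascl2. Rpl32 was 5293 and 5172, nearly level, while Rplp1 was higher and Rpl41 lower with Ascl2.

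At the other end, 6 core genes stayed below 200 in both libraries. Rpl5, which carries the 5S RNA together with Rpl11, was 55.9 and 60.4, and Rps27 was 60.1 and 65.4. Rpl27 was 76.8 and 57.5, Rps12 was 119 and 99.7, Rpl12 was 162 and 141, and Rpl10 was 194 and 180. Loci related to some of these genes held values of similar or larger size. The 7 listed Rps12 pseudogenes summed to 430.0 and 353, of which Rps12-ps3 alone was 380 and 306, more than Rps12 itself. The locus Rps27rt was 96.9 and 92.4, above Rps27. The 4 Rpl10 pseudogenes summed to 49.7 and 42.2, and the 3 Rpl27 pseudogenes to 24.7 and 24.9. The 2 Rpl5 pseudogenes summed to only 1.93 and 1.79. How reads that match a gene and its copies were shared out is not given in the sources used here, so the low levels of Rps12 and Rps27 are uncertain. Pseudogenes were counted only where their name was that of the gene followed by -ps, and Rpl12 had none by that rule. Copies of Rpl12 or Rpl5 listed under other names were not searched for.

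Each gene's difference is given as a log2 ratio, Ascl2 over empty vector, after a pseudocount of 1 was added to both values, which understates the change of low genes. Genes that reached 1 in either library were kept, 12283 in all and 85 of the 86 members. Rps12l1, at 0.691 and 0.380, fell below the filter. Of the 85 members, 65 (76.5%) had a lower value in the Ascl2 library, against 51.6% of all kept genes, and 20 a higher one, against 48.4%. Their median log2 ratio was −0.21, with quartiles of −0.41 and −0.04, against a median of −0.01 over all kept genes. Other genes spanning 1000 to 5000 bases, as most members do, also had a median below 0 (−0.18, described with the genomic spans below). Most differences were small, with 71 of the 77 core genes within 1.5-fold and 25 of them (32.5%) within 1.1-fold, where 35.3% of all kept genes lay within 1.1-fold. One member, Rpl34, was at least 1.5-fold higher, a side that holds 5.01% of all kept genes. Another 6 members were at least 1.5-fold lower, against 4.31% of all kept genes. Among them were Rpl39l, Rpl10a, Rpl37, Rps28 and Rpl38. No member was at least 2-fold higher (1.53% of all kept genes) and 1, the copy Rpl39l, was at least 2-fold lower (0.716%).

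The number of members on the lower side depended on how the libraries were scaled. The Ascl2 library was also rescaled on the sum of all genes other than immunoglobulin genes and the 13 genes that ranked among the 10 largest of either library. Of these 13 genes, 4 were themselves ribosomal protein genes. After this rescaling 57 of 85 members (67.1%) were lower, against 39.5% of all kept genes. The median was then −0.11 over the members and 0.08 over all kept genes. With that rescaling 1 member was at least 1.5-fold higher, against 6.73% of all kept genes, and 2 were at least 1.5-fold lower, against 2.85%. With rescaling by the upper quartile 1 member was at least 1.5-fold higher (5.37% of all kept genes) and 3 at least 1.5-fold lower (3.95%).

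**Figure D2:**
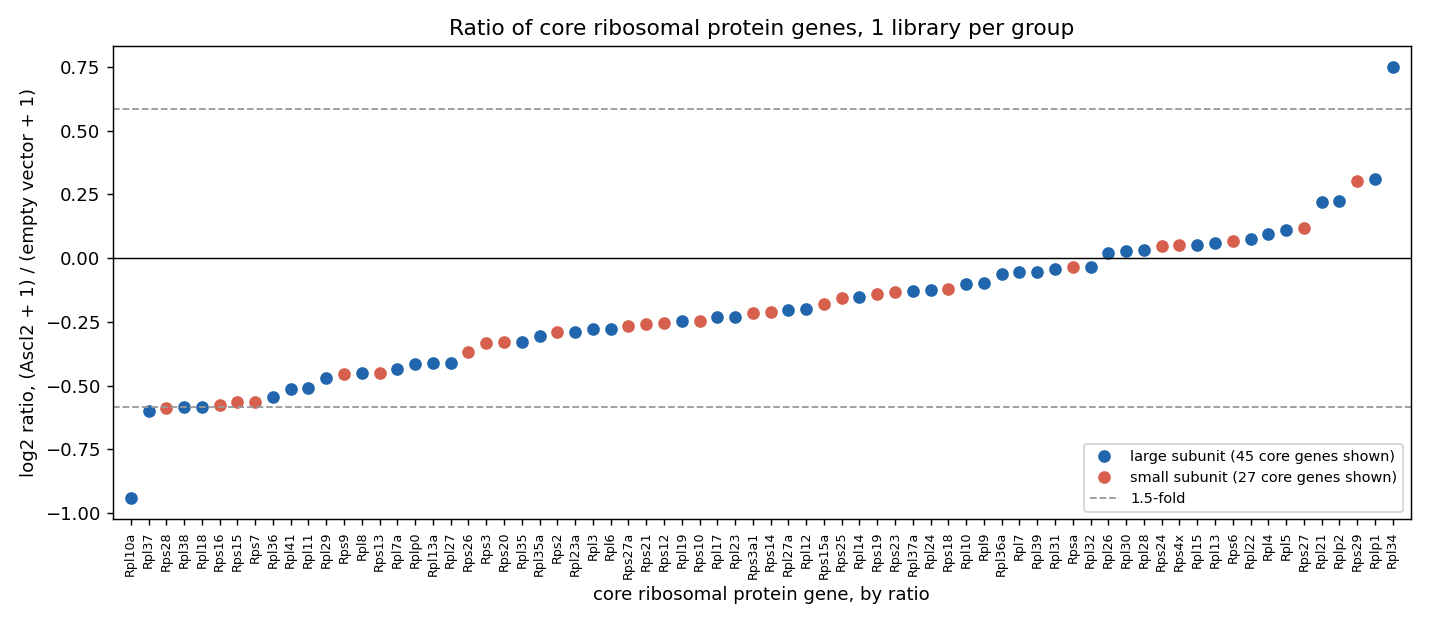
Log2 ratio of 72 of the 77 core ribosomal protein genes (vertical axis), ordered from lowest to highest, with large subunit genes in blue and small subunit genes in red. The dashed lines mark 1.5-fold; Rpl10a at −0.94 and Rpl34 at 0.75 stand apart from a continuous series in which the 2 subunits are mixed.

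In both subunits most genes had a lower value with Ascl2. Of 50 large subunit genes 37 (74.0%) did, and of 35 small subunit genes 28 (80.0%), against 51.6% of all kept genes. With immunoglobulin and top genes left out of the scaling these counts were 31 and 26, against 39.5% of all kept genes. With the span trend removed, as described below, they were 27 and 22, against 49.8% of genes with a span. As deposited, the median log2 ratio was −0.20 for the large and −0.25 for the small subunit. That difference of 0.05 has no error with 1 library per group. Single genes had an SD of 0.33 in the large and 0.23 in the small subunit. The summed abundance with Ascl2 was 0.899 times that with the empty vector for the large and 0.853 times for the small subunit. The sum of the large subunit was 1.35 times that of the small with the empty vector and 1.43 times with Ascl2. Among the core genes alone the medians were −0.20 and −0.25. Ratios ran from −1.23 (Rpl39l) to 0.75 (Rpl34) in the large subunit, and the highest of the small subunit was 0.30 (Rps29).

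A TOP motif marks most ribosomal protein genes, so the sequence around their annotated starts was read from RefSeq (GRCm38.p6, the assembly also called mm10). Of 77 core genes 57 had an entry. The first listed start of each gene was used, which may not be the start used in these cells. The windows below run from 30 bases before the start to 30 bases from it onward, 5′ to 3′ on the gene's strand, with the longest unbroken run of C or T in capitals. That run can lie anywhere in the window and need not include the start, so it is not by itself a TOP motif. In Rpl5, for instance, it begins 20 bases before the annotated start and is 9 bases long. The first 5 are those of the core genes with an entry that had the lowest ratios, shown to set their starts beside those of the genes at the other end.

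Rpl10a (chr17:28328441-28328500, plus strand): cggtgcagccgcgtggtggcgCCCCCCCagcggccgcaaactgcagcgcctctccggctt
Rpl37 (chr15:5116583-5116642, plus strand): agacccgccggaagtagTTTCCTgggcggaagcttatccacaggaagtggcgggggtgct
Rps28 (chr17:33824533-33824592, minus strand): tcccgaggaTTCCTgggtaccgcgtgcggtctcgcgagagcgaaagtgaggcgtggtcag
Rpl38 (chr11:114668550-114668609, plus strand): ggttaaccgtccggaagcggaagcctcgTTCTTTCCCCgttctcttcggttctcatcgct
Rpl18 (chr7:45718041-45718100, plus strand): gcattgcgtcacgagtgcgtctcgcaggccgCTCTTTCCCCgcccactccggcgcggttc

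The next 5 are those of the core genes with an entry that had the highest ratios. Rplp1, Rps29 and Rpl21 had higher ratios than Rps27, Rpl5 and Rpl4 but had no entry.

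Rpl34 (chr3:130730369-130730428, minus strand): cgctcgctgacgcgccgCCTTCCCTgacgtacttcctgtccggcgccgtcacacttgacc
Rplp2 (chr7:141447621-141447680, plus strand): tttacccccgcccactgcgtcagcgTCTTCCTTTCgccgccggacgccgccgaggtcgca
Rps27 (chr3:90213619-90213678, minus strand): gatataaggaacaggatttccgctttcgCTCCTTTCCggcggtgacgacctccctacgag
Rpl5 (chr5:107900498-107900557, plus strand): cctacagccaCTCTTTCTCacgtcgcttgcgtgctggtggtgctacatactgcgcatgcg
Rpl4 (chr9:64173357-64173416, plus strand): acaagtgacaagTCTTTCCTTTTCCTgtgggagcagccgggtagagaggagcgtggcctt

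The runs measured 7, 6, 5, 10 and 10 bases in the first 5 genes and 8, 10, 9, 9 and 14 bases in the second 5, so that Rpl38 and Rpl18 at the low end had runs as long as those of genes at the high end. Over all 57 core genes the longest run in the window had a median of 8 bases, against 5 bases over the 8629 kept genes with an entry. A run of at least 8 bases was present somewhere in the window in 29 of 57 core genes (50.9%) and in 21.3% of kept genes. One of at least 10 bases was present in 20 (35.1%) and 10.4%. The share of core genes with at least 8 bases was 52.9% in the large and 47.8% in the small subunit. Core genes with a run of at least 8 bases had a median log2 ratio of −0.15 and those without one −0.25, both below 0. Over all kept genes with an entry these medians were −0.01 and −0.03.

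The whole entry, from 250 bases before the start to 50 after it, was also searched on both strands for letters bound by known factor families. The ETS-type core CCGGAA was in 29 of 57 core genes (50.9%) and 31.1% of kept genes. It can be read above in Rpl37 and Rpl38 and, on the opposite strand, in Rps27. Core genes with these letters had a median log2 ratio of −0.25 and those without them −0.16. The YY1-type CCATNTT, in which N is any base, was in 17 (29.8%) and 16.0%. The Myc-type E-box CACGTG was in 5 (8.77%) and 10.7%, and the letters TATAAA in 5 (8.77%) and 6.48%. The E-box CAGCTG, of the kind that Ascl2 and related factors bind, was in 2 core genes, Rpl6 and Rpl35 (3.51%), against 14.1% of kept genes. Rpl6 had a ratio of −0.28 and Rpl35, at 1315 and 1046, one of −0.33. These are matches of letters in 1 window and say nothing on whether a factor was bound.

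The lowest ratios in the large subunit belonged to Rpl39l (below) and to Rpl10a, Rpl37, Rpl38, Rpl18 and Rpl36. Rpl10a, the protein of the flexible L1 stalk through which spent tRNA leaves, was 617 and 321 (log2 ratio −0.94), and its start, printed above, has no C or T run beyond 7 bases. It moved from place 67 to place 73 among the members. Its listed pseudogene Rpl10a-ps1 was 69.9 and 47.2, lower with Ascl2 as well. Rpl37 was 676 and 445 (−0.60), and a related locus named Rpl37rt was 164 and 118. Rpl38, known for its part in translating Hox mRNAs in the embryo, was 4211 and 2807 (−0.59). It lay just past the 1.5-fold limit and Rpl18, at 2784 and 1857 (−0.58), just short of it. Rpl36 was 4015 and 2752 (−0.54).

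Among the lowest ratios in the small subunit were those of Rps28, Rps16, Rps15, Rps7 and Rps9. Rps28, at the exit channel of the mRNA, was 1921 and 1276 (log2 ratio −0.59). Rps16 was 1256 and 841 (−0.58), and its pseudogene Rps16-ps2 was 102 and 55.6. Rps7, which can bind the p53 regulator Mdm2, was 949 and 642 (−0.56), and Rps9 was 2546 and 1857 (−0.45).

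The highest ratios in the large subunit belonged to Rpl34, Rpl22l1, Rplp1, Rplp2, Rpl21 and Rpl5. Rpl34 was 3159 and 5307 (log2 ratio 0.75), which took it from place 18 to place 4. Its pseudogene Rpl34-ps1 was 38.0 and 47.5. Rplp2 was 1490 and 1741 (0.22). Rpl21 was 1561 and 1820 (0.22), while its 6 listed pseudogenes together went the other way, from 66.5 to 44.6.

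In the small subunit only 7 genes had a ratio above 0, and Rps29 led them. Rps29, a zinc-binding protein of the subunit head, was 2809 and 3467 (log2 ratio 0.30), and moved from place 22 to place 11. Rps27 (0.12), Rps3a3 (0.07), Rps6 (0.07), Rps4x (0.05) and Rps24 (0.05) followed. Rps6, the substrate of the S6 kinases that is phosphorylated when mTOR is active, was 781 and 818.

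The members between these extremes were mostly a little lower with Ascl2. In the large subunit Rpl7a, at 1162 and 860.1, had a ratio of −0.43 and Rpl35a, at 4018 and 3251, one of −0.31. Rpl13a, at 3915 and 2940, had a ratio of −0.41. Rpl23, Rpl27a, Rpl14, Rpl37a, Rpl24 and Rpl9 lay between −0.23 and −0.10, and Rpl13, Rpl15 and Rpl28 between 0.03 and 0.06. In the small subunit Rps21 (3280 and 2745), Rps10, Rps15a, Rps25 and Rps18 (3484 and 3203) lay between −0.26 and −0.12.

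The members were also grouped by their place in the particle. In the stalk the genes went in both directions: Rplp1 and Rplp2 were higher with Ascl2, but Rplp0, the protein that anchors both of them, was 3334 and 2499 (log2 ratio −0.42), and Rpl12, at the stalk base, had a ratio of −0.20, at 162 and 141. The 5S particle also held genes of both directions, with Rpl11 at 913 and 641 (−0.51) and Rpl5 at 0.11. Around the exit of the peptide tunnel 7 of 9 genes (77.8%) were lower (Rpl17, Rpl19, Rpl23a, Rpl31, Rpl35, Rpl37 and Rpl39), and Rpl22 and Rpl26 were slightly higher. That share was near the 76.5% of all members, where 51.6% of all kept genes were lower. The tunnel exit median of −0.23 was also near the −0.21 of all members. The mRNA entry proteins Rps2 (3397 and 2780) and Rps3 (1161 and 922) had ratios of −0.29 and −0.33. Of the proteins at the mRNA exit and platform, Rps28, Rps26 and Rps14 had ratios of −0.59, −0.37 and −0.21, and Rpsa, at 2703 and 2637, had −0.04. At the decoding site Rps23 (840 and 766) and Rps15 had ratios of −0.13 and −0.56.

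A set of 18 core genes is known as causes of Diamond-Blackfan anaemia, an inherited failure of red cell production. Of these, 12 (66.7%) were lower with Ascl2, against 76.5% of all members and 51.6% of all kept genes. Their median was −0.28, against −0.21 over all members. Rps19, the most often affected of them in patients, was 1450 and 1315 (−0.14). Both directions were thus present among these genes, from Rps28 at −0.59 to Rps29 at 0.30.

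The copies behaved unevenly. Rpl39l, a copy of the tunnel protein gene Rpl39, was 1.82 and 0.200 (log2 ratio −1.23), values near the bottom of the range, while Rpl39 itself was 953 and 919. Rpl22l1 was 304 and 397 (0.38), and Rpl22, an RNA-binding protein needed for T cell development, was 2400 and 2531 (0.08). Rps27l, a p53 target, was 402 and 381, and stood well above its core gene Rps27, whose low level is uncertain as described above. Rpl7l1 was 39.6 and 35.0, next to Rpl7 at 1962 and 1887. The remaining copies were near the bottom of the range: Rpl6l was 10.5 and 8.25, Rps3a2 was 8.81 and 7.59, Rps3a3 was 10.3 and 10.9, and Rps4l was 5.26 and 3.77. Their core genes Rpl6 (1290 and 1064), Rps3a1 (2671 and 2304) and Rps4x (2413 and 2499) were far higher. Rpl36al, whose name lies outside the rule, was 860 and 899, and Rpl36a was 1338 and 1281.

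Genes named as ribosomal protein pseudogenes were listed in large number and were left out of all counts of members. The 105 such genes summed to 2469 and 1848, or 0.329% and 0.242% of all values. Of the 94 that passed the filter, 67 (71.3%) were lower with Ascl2, against 51.6% of all kept genes and 76.5% of the members. The median log2 ratio of these pseudogenes was −0.20. The lowest ratios among them were those of Rps13-ps1, at 290 and 61.0 (−2.23), and Rpl35a-ps4, at 6.15 and 0.757 (−2.02). Rps13, the core gene of the first, was 453 and 331 (−0.45). The part that the division of reads between gene and pseudogene has in these values was not tested. Of the members, 44 had a listed pseudogene of the same name, with a median ratio of −0.15, and 41 had none, with a median of −0.28.

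Ribosomal components whose names fall outside the rule were also looked up. Fau, a ubiquitin-like protein fused to a small subunit protein, was 149 and 100.03 (log2 ratio −0.57). Rack1, a signalling scaffold on the small subunit, was 1843 and 1515 (−0.28). Both were lower with Ascl2, as was Rps27a, a member that encodes ubiquitin fused to a small subunit protein, at 854 and 709 (−0.27).

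The same measures were taken of genes that share the TOP motif but mostly encode other parts of the translation machinery. Of 18 listed, 10 (55.6%) were lower, against 51.6% of all kept genes, and 8 higher, with a median of −0.01. None was past 1.5-fold, where 5.01% of all kept genes lay on the higher and 4.31% on the lower side. Their median genomic span was 9828 bases, against 3164 bases for the members. The elongation factor gene Eef1a1 was 10451 and 10753, Eef2 was 2535 and 2066, Tpt1 was 2127 and 2117, and the nucleolar chaperone gene Npm1 was 1872 and 2126. The 18 genes together summed to 24149 and 24144. The difference between this list and the ribosomal protein genes was not tested, because there is 1 library per group.

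Genes that chaperone, import or regulate ribosomal proteins held no member past 1.5-fold. Of all kept genes 5.01% were past it on the higher and 4.31% on the lower side, and 51.6% had a lower value with Ascl2. Of 14 chaperone and importer genes 8 (57.1%) were lower, with a median of −0.04. Grwd1, a histone-binding chaperone that also handles Rpl3, was the lowest at 11.8 and 8.40, and Tnpo1, an import receptor, the highest at 29.2 and 35.6. Of 19 genes that control ribosomal protein synthesis 12 (63.2%) were lower, with a median of −0.03. Mtor was 9.65 and 9.43, Larp1 was 53.9 and 53.3, Myc was 84.3 and 75.7, and the S6 kinase gene Rps6kb1 was 24.4 and 24.6. Of 13 listed genes of ribosome quality control 6 (46.2%) were lower, with a median of 0.04. Abce1, the ribosome splitting factor gene, was 60.9 and 70.9.

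**Figure D3:**
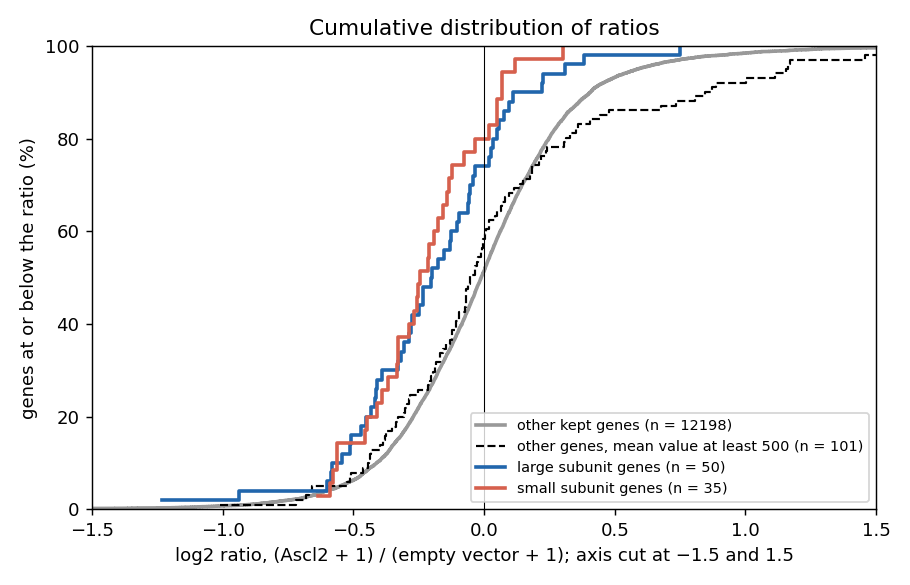
Share of genes (percent, vertical axis) at or below each log2 ratio for large subunit genes (blue, n = 50), small subunit genes (red, n = 35), all other kept genes (grey, n = 12198) and other genes with a mean value of at least 500 (dashed, n = 101). Both subunit curves lie to the left of the other 2 over most of the range, and the 2 subunits run close together.

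The members were set beside other genes of high level and of short length, since they are both. Among genes with a mean value of at least 500 over the 2 libraries, the 68 members had a median log2 ratio of −0.23 with 76.5% below 0, and the 101 others −0.05 with 58.4% below 0. Genomic span, the distance from the start to the end of a gene, was also set beside the ratios. The members spanned a median of 3164 bases and all kept genes 20059 bases. Across all kept genes with a known span the log2 ratio and the span had a Spearman rho of 0.19 (n = 11325), and across the members 0.03 (n = 85). Among genes spanning 1000 to 5000 bases, the 1303 that were neither members nor immunoglobulin genes had a median of −0.18 with 69.9% below 0, and the 67 members −0.23 with 79.1% below 0. With the running median over span removed, the members' median was −0.07 and 49 of 85 (57.6%) were below 0, against 49.8% of all 11325 genes with a span. Genes of this span were thus mostly lower in the Ascl2 library whether or not they encode ribosomal proteins. The part of span, or of a property that goes with it, in the members' ratios was not tested.

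**Figure D4:**
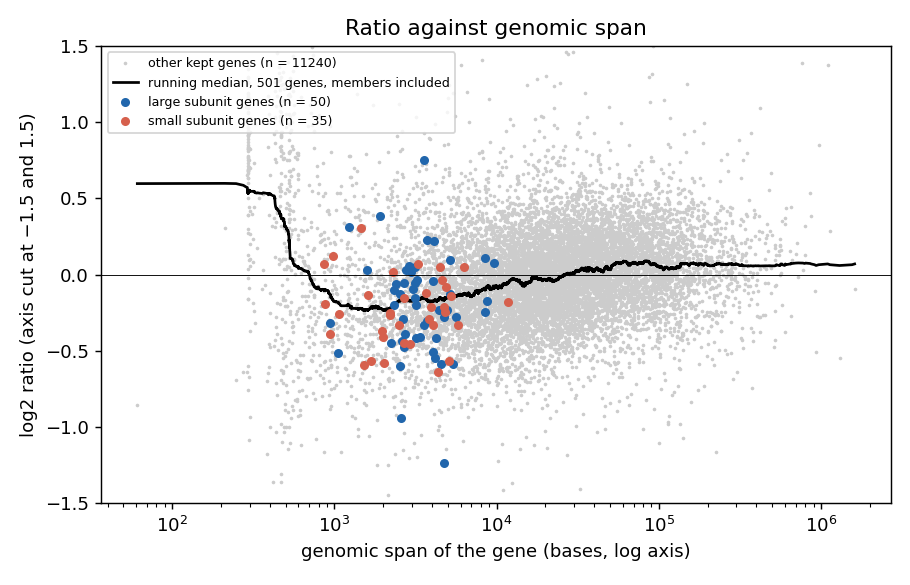
Log2 ratio (vertical axis) against genomic span in bases (log axis) for large subunit genes (blue), small subunit genes (red) and other kept genes (grey), with the running median of all of them in black. Between 1000 and 5000 bases the running median itself lies below 0, and the members lie on both sides of it.

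Members were also grouped by chromosome, for chromosomes with at least 4 of them. Over all chromosomes 65 of 85 members (76.5%) were lower with Ascl2, against 51.6% of all kept genes. The share of other genes lower on each chromosome was not computed. The counts below therefore describe a few members each and cannot show a difference between chromosomes. Chromosome 7 held the most, 14, of which 12 were lower, with a median of −0.37. On chromosome 10 all 5 members were lower (median −0.37), on chromosome 17 all 7 (−0.29), on chromosome 2 all 4 (−0.29) and on chromosome 11 6 of 7 (−0.27). On chromosome 15 3 of 4 were lower (−0.36), on chromosome 9 5 of 7 (−0.08) and on chromosome 5 3 of 5 (−0.10). More members were higher than lower on chromosome 3, where 3 of 4 were higher (median 0.25), and on chromosome 4, where 3 of 5 were (0.02). The 4 on the X chromosome (Rpl10, Rpl36a, Rpl39 and Rps4x) lay between −0.10 and 0.05. The neighbours Rpl41 and Rps26 on chromosome 10, separated by 75361 bases, had ratios of −0.51 and −0.37.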

How the data were processed

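RNA of 1 empty-vector and 1 Ascl2 library was compared, grouped by sample title. The authors deposited a signal per gene; its unit, quantifier and annotation are not given in the sources at hand. The submitters' processing notes name the build mm10 and 4 tools without saying which served the RNA (MACS2, Picard, Bowtie2, Trim Galore). No gene was listed at 0. From these values log2 ratios (pseudocount 1), shares of the sum, and counts past 1.5-fold and 2-fold were computed over genes reaching 1 in either library. With 1 library per group no p-value or error could be given. Symbols were matched to RefSeq for span and start (86 of 86 members for span). The members, lists, place groups and motifs were chosen with earlier results of these data known. All members could be named, with values in full for the 6 lowest and 6 highest ratios and 3 highest levels of each subunit, members past 1.5-fold, and copies with their core genes. Single values of 5 members and of some other genes are not reported here, though counts and medians include them. Alternatives covered pseudocount, filter, scaling, trends with level and span, and which members entered. The code, run with Python 3.11.15, numpy 2.4.6, pandas 2.3.3 and matplotlib 3.10.9, was checked on altered values with known answers.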

Additional observations from a re-analysis of the deposited data

How the results depend on the processing

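The median log2 ratio of the members (−0.21) kept its sign under every alternative run, as did those of the large (−0.20) and small (−0.25) subunit. The cause of the moves below was not tested. Without immunoglobulin and top genes in the scaling the 3 medians were −0.11, −0.10 and −0.14. With the span trend removed, an alternative added after the data were seen, they were −0.068, −0.053 and −0.068. Without members that have a listed pseudogene they were −0.28, −0.255 and −0.33. With the level trend removed the subunit medians were −0.14 and −0.18. Members at least 1.5-fold higher numbered 1, against 5.01% of all kept genes, but 0 without members that have a listed pseudogene. With the span trend removed they numbered 2, against 4.23% of genes with a span. Members at least 1.5-fold lower numbered 6, against 4.31% of all kept genes. They numbered 5 with a filter of 5, paralogs left out or core members only. With a pseudocount of 5, scaling to a median ratio of 0, or members with a listed pseudogene left out, it was 4. With upper-quartile scaling it was 3, against 3.95%. It was 2 without immunoglobulin and top genes in the scaling (against 2.85%), with the level trend removed (4.29%) or with the span trend removed (3.1% of genes with a span). The 1 member at least 2-fold lower, Rpl39l, became 0 with a pseudocount of 5, a filter of 5, paralogs left out or core members only. The share of ribosomal protein genes with Ascl2 was 0.864 times that with the empty vector, and 0.9445 times with immunoglobulin and top genes left out of the total. The planned trend over protein length was not run, because no protein lengths were used here. No paired analysis was possible because each group has 1 library. Low values such as that of Rpl39l cannot be given an error at unknown depth.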
